A study of Rattus norvegicus with 33 samples.

Results

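Adult hormone implants were compared with empty implants in the prostates of rats that had all received estrogen as newborns. The comparison took the 7 arrays whose sample titles name EB or EB+T+E at postnatal day (PND) 145, out of 33 arrays in the series: 4 of the EB group and 3 of the EB+T+E group. Both groups were male Sprague-Dawley (Hsd:SD) rats that received estradiol benzoate (EB), a long-acting ester of estradiol, at 2.5 mg/kg by subcutaneous injection on PND 1, 3 and 5. At PND 90 the EB rats received 3 empty silastic tubes and the EB+T+E rats 2 tubes with testosterone and 1 with estradiol (T+E), so that the implants had been in place for 55 days at PND 145. Dams and pups were kept on a chow low in phytoestrogens. For comparison, 3 Control rats (vehicle at birth, empty tubes) and 3 T+E rats (vehicle at birth, hormone tubes) were measured at PND 145, and 3 EB and 3 EB+T+E rats at PND 100, after 10 days of implants. Each sample's total RNA was hybridised to 1 single-colour Agilent array. The tissue label reads whole prostate but the title of the series says dorsolateral, and the lobes taken are therefore uncertain. According to the labels 3 to 4 litters stand behind each group. The p-values reflect the spread within groups over all 33 arrays, including rats of PND 30 and Control and T+E rats of PND 100. Counts from fits of only the groups compared are given at the end.

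The prostate is a secretory gland whose luminal epithelial cells depend on androgen to make the proteins of the seminal fluid, within a stroma of smooth muscle and fibroblasts. Estrogen given to newborn rodents alters the growth and hormone response of the gland for life. Raised estradiol together with testosterone in adult rats is known to produce inflammation and epithelial lesions in the prostate, and it also raises pituitary prolactin.

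All values below are log2 signals of a gene's brightest probe set against the 75th percentile of its array, which is 0 on this scale, and a log2 ratio is EB+T+E minus EB, in which 1 is a 2-fold difference. Between 61.5% and 68.9% of the spots of each array were well above background, and 0 spots were saturated. The EB arrays correlated with each other at 0.938 to 0.977 over all genes. EB+T+E 1 and EB+T+E 2 correlated at 0.982, but EB+T+E 3 stood apart: it correlated with them at 0.941 and 0.950 and with the EB arrays at 0.919 to 0.940. Where leaving out EB+T+E 3 changed the call of a gene described below, both values are given. EB 2 and EB 4 carried more skeletal muscle signal (list mean 0.41 and -0.89) than EB 1 and EB 3 (-3.24 and -3.69), and its part in the results was not tested.

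Of 23352 genes tested, 5351 (22.9%) differed between EB+T+E and EB at an adjusted p under 0.05 in limma, which is what "called", "rose" and "fell" mean below. In all, 2471 (10.6%) rose and 2880 (12.3%) fell. The median log2 ratio of all genes was -0.22, and -0.12 under quantile scaling, so a small fall near that size carries little information about a single gene. The arrays of the groups did not overlap for 7309 genes (31.3%). EB 1 to 3 and EB+T+E 1 to 3 shared slides by number. Within slide 2, 5332 of the 5351 called genes differed in the called direction, and within slide 3, 5320 did. Within slide 4, which held EB+T+E 3, 5130 did. The genes were called from these same arrays, so most of this agreement follows from the call and is no separate support. The count of called genes was 6060 without EB+T+E 3, 2781 without EB+T+E 1 and 3000 without EB+T+E 2. The rule named 147 genes, some of them not called with all arrays and so without a call to lose. Of those called, 26 lost their call without at least 1 array: 19 without EB+T+E 1, 23 without EB+T+E 2, 2 without EB+T+E 3, and 11, 2, 8 and 9 without EB 1 to 4. These were Akr1b7, Efhc2, Elf5, Ern1, Esr1, Foxa1, Gfra3, Gstt2, Hsd11b1, Il4i1, Krt15, Lao1, Mlf1, Myh11, Oprpn, Pdia6, Prg2, Rps4x-ps1, S100a7l2, Scgb1d2, Scgb1d4, Sdr16c5, Ssr2, Tff1, Tmprss2 and Wap, and their calls below are less secure than the others. With the slide as a block 4906 genes were called, and Mlf1, Esr1, Foxa1, Elf5, Gfra3 and Ern1 were not (limma adjusted p between 0.051 and 0.075).

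The 12 genes with the highest ratios among those whose arrays did not overlap had ratios between 6.36 and 10.48, led by Clca1. Clca1, a secreted product of mucous and goblet cells, stood at -7.80, -3.81, -5.42 and -5.38 in EB 1 to 4 and at 4.64, 5.47 and 4.52 in EB+T+E 1 to 3. Its log2 ratio was 10.48 ± 1.51 (SE; limma adjusted p = 4.4e-05), and the groups lay more than 8 log2 units apart at their nearest arrays. Jchain, the chain that joins IgA and IgM into polymers, stood at -2.78, -4.27, -3.49 and -3.81 in the EB arrays and at 4.50, 4.62 and 2.90 in the EB+T+E arrays (ratio 7.59 ± 0.84, limma adjusted p = 1.7e-06). Ms4a1, the B-cell surface protein CD20, was well above background in 2 of 4 EB arrays and reached 1.28, 0.56 and -1.64 in EB+T+E 1 to 3. The immunoglobulin light chain segment Igkv28 behaved alike, at 1.91, 1.58 and -1.50 against -9.07 to -6.30. For both, EB+T+E 3 was the lowest of the 3 treated arrays and still above every EB array.

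Cxcl2, a chemokine that draws neutrophils, read 1.84, 2.65 and 3.23 in EB+T+E 1 to 3, against -7.35, -3.33, -6.53 and -1.13 in EB 1 to 4, so that its EB arrays spread over 6 log2 units. S100a9, a subunit of the neutrophil protein calprotectin, stood at -0.93, -0.40 and 0.55 against -8.02 to -4.55. In Cxcl2 and S100a9, unlike Ms4a1 and Igkv28, EB+T+E 3 was the highest treated array. Ccl3, a chemokine of activated macrophages, stood at 1.38, 2.33 and 1.30 against -5.33 to -3.49. Stfa2l2, of the stefin A family of protease inhibitors, had a ratio of 6.56 ± 1.27, and Np4, a neutrophil defensin, one of 6.61 ± 1.24, with Np4 well above background in 1 of 4 EB arrays. Ly6al, Ly6i and Ly6cl1, members of the Ly6 family of small membrane-anchored proteins, had ratios of 8.59 ± 1.46, 7.19 ± 1.22 and 7.15 ± 1.14. Members of the Ly6, defensin, stefin and immunoglobulin families resemble each other in sequence, so a probe may also read a relative, which leaves these values uncertain.

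A further 4 genes were not well above background on any EB array, and their folds are lower bounds against the lowest signal above background. Cd79b, of the B-cell receptor, was at least 64.0-fold higher in EB+T+E, and Tnfrsf17, the plasma cell receptor BCMA, at least 44.6-fold. Acod1, the enzyme with which activated macrophages make itaconate, was at least 42.6-fold higher, and Cd177l2, named for its likeness to the neutrophil protein CD177, at least 38.1-fold.

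**Figure D1:**
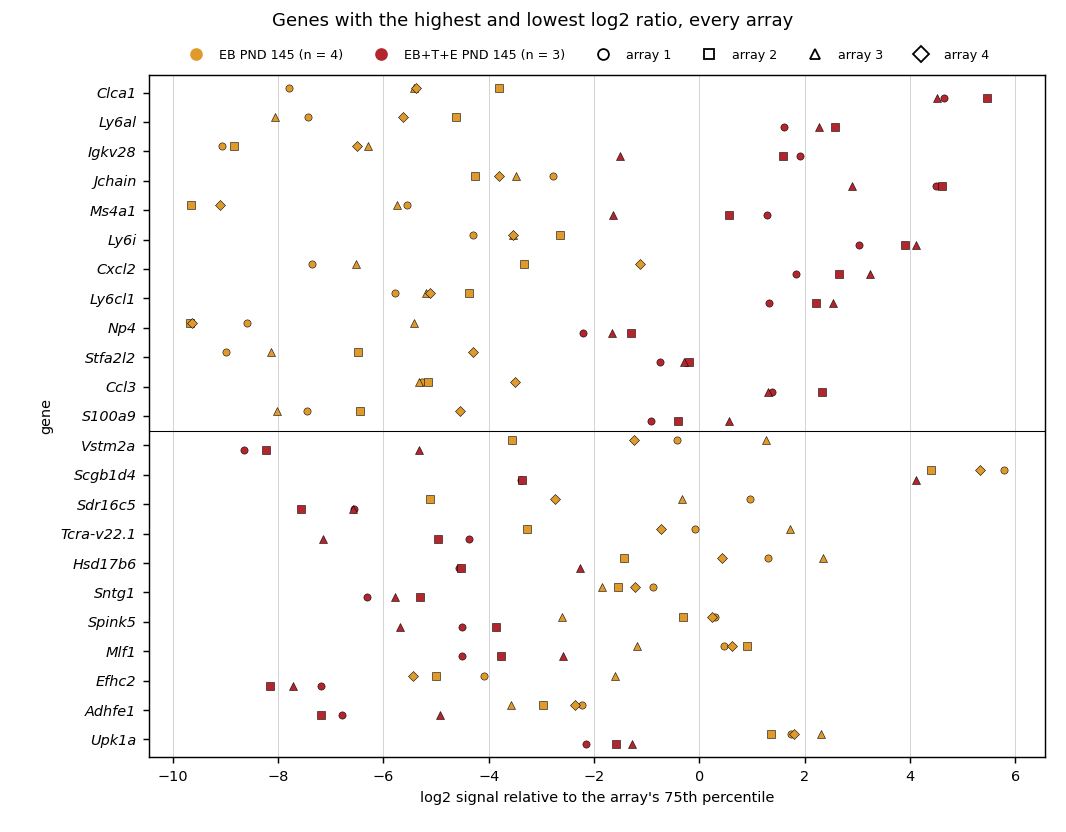
The 12 genes with the highest and 11 of the 12 with the lowest log2 ratio whose arrays do not overlap between the groups. Each point is 1 array, with log2 signal relative to the array's 75th percentile on the x axis; Clca1 stands at 4.52 to 5.47 in EB+T+E and at -7.80 to -3.81 in EB, and EB+T+E 3 (triangles) lies nearest to EB for Igkv28, Ms4a1, Vstm2a and Scgb1d4.

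Upk1a, Sntg1, Spink5 and Adhfe1 were among the 12 genes with the lowest ratios. Upk1a, a uroplakin of the urothelium, stood at 1.73, 1.36, 2.30 and 1.80 in EB 1 to 4 and at -2.16, -1.58 and -1.27 in EB+T+E 1 to 3 (log2 ratio -3.47 ± 0.47, limma adjusted p = 2.7e-05). Sntg1, a syntrophin, stood between -1.84 and -0.88 in EB and between -6.32 and -5.30 in EB+T+E. Spink5, an inhibitor of serine proteases, and Adhfe1, a mitochondrial oxidoreductase, had ratios of -4.09 ± 0.80 and -3.51 ± 0.51.

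Another group of fallers varied widely among the EB arrays themselves. Vstm2a, an immunoglobulin-domain protein, stood at -0.43, -3.55, 1.26 and -1.23 in EB 1 to 4 and at -8.64, -8.22 and -5.33 in EB+T+E 1 to 3, of which 1 array was well above background. Sdr16c5, a retinol dehydrogenase, ran from 0.95 (EB 1) to -5.11 (EB 2), against -7.56 to -6.55 in EB+T+E. Hsd17b6, which can convert androstanediol back to dihydrotestosterone, ran from 2.34 (EB 3) to -1.44 (EB 2), against -4.56, -4.53 and -2.27. The probe named Tcra-v22.1, for a segment of the T-cell receptor alpha chain, fell from between -3.28 and 1.73 to between -7.15 and -4.38, the opposite of the other T-cell genes. Lipo1, of a lipase family, was at least 79.4-fold lower, and Oprpn, the precursor of the peptide opiorphin, at least 34.2-fold lower, with EB arrays spread from -6.82 to 3.27 and from -7.43 to 1.13. In each of these genes EB 3 or EB 1 was the highest array and EB 2 the lowest. At PND 145 Control and T+E arrays held Lipo1 at -9.29 to -8.66 and Sdr16c5 at no more than -7.24, below all 4 EB arrays, so that in EB+T+E these genes stood near the level of rats without neonatal EB. The calls for Sdr16c5 and Oprpn were lost without EB+T+E 1 (limma adjusted p = 0.052 and 0.14) and without EB+T+E 2 (0.074 and 0.12), and that for Oprpn also without EB+T+E 3 (0.051).

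Mlf1, Efhc2, Scgb1d4, Tacr2 and Gjb6 complete the list of the lowest. Tacr2, the neurokinin receptor of smooth muscle, was at least 11.7-fold lower and Gjb6, the gap junction protein connexin 30, at least 11.3-fold lower, both below background in all EB+T+E arrays. Mlf1 had a ratio of -3.83 ± 1.39 (limma adjusted p = 0.048), which became 0.17 without EB+T+E 1. Efhc2, a protein of ciliary microtubules, had a ratio of -3.65 ± 1.05 and was well above background in 1 EB+T+E array.

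Genes of T and NK cells were higher almost throughout. Of 46 tested, 40 rose, by 1.32 to 4.91, with a list median of 3.59 against -0.22 for all genes. Cd4, the coreceptor of helper T cells, stood at -1.88, -1.36, -1.50 and -1.76 in EB 1 to 4 and at 1.22, 1.39 and 0.67 in EB+T+E 1 to 3 (ratio 2.72 ± 0.29, limma adjusted p = 1.2e-06). Gzmk and Nkg7, of the granules of cytotoxic cells, had ratios of 3.66 ± 0.50 and 2.86 ± 0.40, and Tcf7, a transcription factor of naive and memory T cells, one of 3.34 ± 0.46. The list mean per array was -5.57 to -5.14 in EB and -1.64, -1.91 and -3.38 in EB+T+E 1 to 3, so EB+T+E 3 carried less of this signal than the other treated arrays and more than any EB array. As in all bulk tissue, more cells of a type and more RNA per cell cannot be told apart.

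Of 35 genes of B cells and plasma cells 28 rose, by 1.97 to 7.59, with a median of 3.91. Mzb1, a chaperone of antibody secretion, was below background in every EB array and at least 25.8-fold higher. Fcrla, a B-cell protein of the Fc receptor family, stood at -4.46, -4.35, -3.77 and -4.41 in EB and at 0.13, -0.20 and -2.10 in EB+T+E. The list mean ran from -5.39 to -4.62 in EB, and was -0.93, -1.14 and -2.53 in EB+T+E 1 to 3. Without EB+T+E 3, 27 members of this list and 41 of the T and NK list were called. As EB+T+E 3 was the lowest treated array for both lists, leaving it out could hardly lower these counts. They do not show how far the calls rest on EB+T+E 1 and 2.

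Macrophage and dendritic cell genes rose in 31 of 39 cases, by 1.61 to 3.92. Cd68, a lysosomal protein of macrophages, stood at -2.99, -1.92, -2.30 and -2.85 in EB and at 1.47, 1.49 and 0.54 in EB+T+E (ratio 3.68 ± 0.48, limma adjusted p = 1.6e-05). Itgam, the integrin CD11b, had a ratio of 3.89 ± 0.52 and Fcer1g, the signalling chain of Fc receptors, one of 2.79 ± 0.38. Among genes of neutrophils and acute inflammation 30 of 41 rose, by 1.27 to 7.16, with a median of 3.62. Trem1, a receptor that amplifies neutrophil activation, was at least 13.2-fold higher, and Csf3r, the receptor of the growth factor G-CSF, at least 9.89-fold. Here the treated arrays lay close together: the list mean was -2.01, -1.77 and -2.22 in EB+T+E 1 to 3 and -5.82 to -4.67 in EB. Of 18 mast cell and eosinophil genes 3 were called, all higher, while 10.6% of all genes rose. The 3 were the eotaxin receptor Ccr3, from between -7.06 and -5.38 in EB to -2.26, -2.31 and -4.15 in EB+T+E, the eotaxin Ccl24 (1.89 ± 0.45) and Prg2, the major basic protein of eosinophils (2.28 ± 0.66).

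Antigen presentation and complement genes rose alongside. Of 27 genes of antigen presentation 22 rose, by 0.59 to 4.02. Ciita, the master regulator of MHC class II genes, stood at -4.61, -4.05, -3.75 and -4.45 in EB and at 0.30, 0.27 and -1.15 in EB+T+E, and Cd74, the invariant chain of class II molecules, at 1.08 to 1.81 and 3.63 to 4.67. Of 30 complement genes 20 rose and 1 fell. C1qa, C1qb and C1r, of the first component of the classical pathway, had ratios of 3.04 ± 0.44, 2.85 ± 0.38 and 2.85 ± 0.45. C3, the central component and also a classic estrogen target, stood at -2.01, -0.80, -1.88 and -1.57 in EB and at 3.81, 3.31 and 3.55 in EB+T+E (ratio 5.12 ± 0.95, limma adjusted p = 0.00045). In the Ly6 family 7 of 18 rose, by 3.49 to 8.59, among them Ly6c (4.73 ± 0.65) and Ly6e (3.50 ± 0.47), which is also induced by interferon.

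Of 50 interferon response genes 41 rose, by 0.81 to 4.77, with a median of 2.45. Stat2, a component of the factor that interferon activates, stood at 1.05, 0.65, 1.13 and 0.79 in EB and at 2.42, 2.61 and 2.24 in EB+T+E (ratio 1.52 ± 0.26, limma adjusted p = 0.00019). Gbp4, a GTPase induced by interferon, and Cxcl9, a chemokine for T cells, had ratios of 3.43 ± 0.54 and 3.01 ± 0.52, and Oasl was at least 9.08-fold higher. The list mean was -2.58 to -2.06 in EB and 0.23, 0.29 and -0.63 in EB+T+E 1 to 3. The promoters of these genes are shown because they are the members for which a known response element can be read in the sequence. Interferon-activated factors bind the interferon-stimulated response element, searched here as GAAA, any 2 bases and GAAA on both strands in the window from 250 bases before to 50 after the start of each gene in a RefSeq table (build GRCr8). Of the 50 genes, 39 had a promoter there, and 26 of these (66.7%) held the letters, against 3.77% of all 27457 promoters. Of the 26, 19 rose, and of the 13 without it, 12 rose. Over all 423 tested genes with the letters, members of the list included, 25.1% rose, against 10.9% of the 13372 tested genes with a promoter. The genes printed below, like those of the later sequences, were chosen for their matches after their values were seen. Each line holds the 100 bases before the start, 5′ to 3′ on the gene's strand, with matches in capitals:
Ddx60: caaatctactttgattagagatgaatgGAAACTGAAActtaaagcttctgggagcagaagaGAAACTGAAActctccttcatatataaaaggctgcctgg
Ifit3: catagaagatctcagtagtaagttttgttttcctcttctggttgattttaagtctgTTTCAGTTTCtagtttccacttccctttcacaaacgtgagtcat
Ifi44l: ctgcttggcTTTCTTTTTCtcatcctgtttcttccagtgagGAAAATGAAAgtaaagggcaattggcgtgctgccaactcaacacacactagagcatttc
Irf7: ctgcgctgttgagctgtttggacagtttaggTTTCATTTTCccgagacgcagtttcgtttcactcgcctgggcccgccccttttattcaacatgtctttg
Ifih1: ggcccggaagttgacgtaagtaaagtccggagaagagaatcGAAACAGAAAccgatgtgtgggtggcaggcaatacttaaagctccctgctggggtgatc
Oas1b: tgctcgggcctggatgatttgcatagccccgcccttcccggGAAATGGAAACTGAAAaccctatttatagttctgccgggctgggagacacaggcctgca

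These windows lie at chr16:33208840-33208939 (minus strand) for Ddx60, chr1:241527226-241527325 (plus) for Ifit3, chr2:243328623-243328722 (plus) for Ifi44l, chr1:205800024-205800123 (minus) for Irf7, chr3:67683969-67684068 (minus) for Ifih1 and chr12:41395853-41395952 (minus) for Oas1b. Ddx60, an antiviral helicase with matches at -73 and -39, stood at -7.19, -5.35, -5.40 and -6.71 in EB and at -0.65, -0.66 and -2.85 in EB+T+E (ratio 4.77 ± 1.01, limma adjusted p = 0.0014). Ifit3, an antiviral protein with a match at -44, stood between -4.86 and -3.93 in EB and at -0.11, 0.47 and -0.69 in EB+T+E. Ifi44l and Irf7, a transcription factor that amplifies the interferon response, had ratios of 3.47 ± 0.70 and 3.39 ± 0.87. Not every gene with a match moved: Ifih1, a sensor of viral RNA, stood at -1.01, -4.60, -2.08 and -3.27 in EB and at -3.22, -2.74 and -3.01 in EB+T+E, and Oas1b at 3.66 to 4.17 and 3.50 to 3.92, with limma adjusted p of 0.89 and 0.21. The groups overlapped in all 7 members with the letters that were not called, and a match describes the letters, not a bound site.

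**Figure D2:**
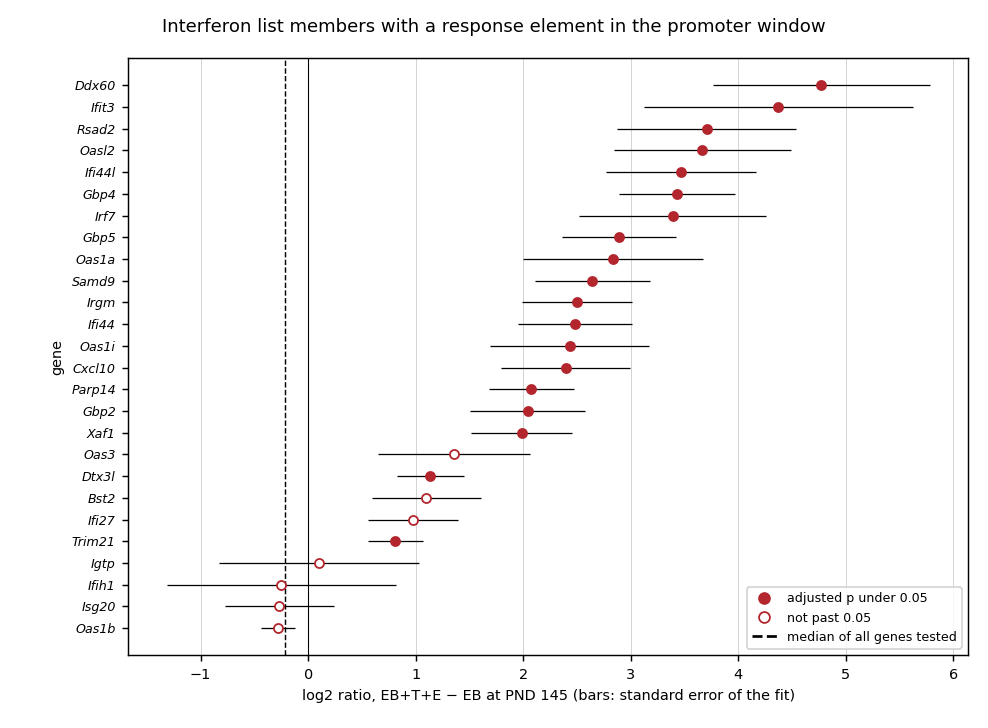
Log2 ratio of the 26 interferon response genes with the letters of the response element in the promoter window, with the standard error of the fit. Filled points passed the threshold: 19 genes did, from Trim21 (0.81) to Ddx60 (4.77), while Igtp, Ifih1, Isg20 and Oas1b lie near the median of all genes.

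A site for the inflammatory factor NF-kappaB, searched as GGG, any 2 bases and TTTCC on both strands in the same windows, occurred in 8 of 31 genes of neutrophils and acute inflammation (25.8%), against 1.51% of all promoters. Of these 8, 5 rose, and of the 23 without the letters, 16 rose. Over all 235 tested genes with the letters, members of the list included, 22.6% rose, against 10.9% of the tested genes with a promoter. The 100 bases before the start are shown for 3 chemokines that rose:
Cxcl2: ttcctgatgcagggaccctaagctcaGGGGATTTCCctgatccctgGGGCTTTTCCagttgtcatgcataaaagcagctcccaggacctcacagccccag
Cxcl6: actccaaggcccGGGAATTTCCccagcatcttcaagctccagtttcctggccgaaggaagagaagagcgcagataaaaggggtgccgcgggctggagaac
Ccl20: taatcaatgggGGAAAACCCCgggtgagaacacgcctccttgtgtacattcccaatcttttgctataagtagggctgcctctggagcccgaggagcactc

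They lie at chr14:17467256-17467355 (minus strand), chr14:17596418-17596517 (minus) and chr9:91837059-91837158 (plus). Cxcl2, with 2 matches, is given above. Cxcl6, another neutrophil chemokine, stood at -9.01, -6.21, -7.99 and -8.55 in EB and at -4.55, -3.86 and -6.25 in EB+T+E (ratio 3.05 ± 0.98), and Ccl20, a chemokine for Th17 cells and B cells, at -3.03 to -1.96 and at 0.38, 0.18 and -2.01 (2.18 ± 0.78, limma adjusted p = 0.045). In both, EB+T+E 3 fell within the range of EB, below EB 2. The octamer ATGCAAAT, read by B-cell factors, was found in 1 of 25 promoters of the B-cell list, against 1.64% of all, and the CArG box of smooth muscle genes in 1 of 22, against 1.64%.

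Stromal genes moved in opposite directions. Of 55 fibroblast and matrix genes 25 rose, by 0.95 to 3.54, and 1 fell. Fn1, the matrix protein fibronectin, stood at -2.19, -0.88, -1.82 and -0.95 in EB and at 2.34, 2.31 and 1.58 in EB+T+E (ratio 3.54 ± 0.58, limma adjusted p = 0.00014). Col1a1 and Col3a1, the fibrillar collagens, had ratios of 2.33 ± 0.42 and 2.67 ± 0.49, and Tgfb1, a growth factor that drives matrix production, one of 2.79 ± 0.51. Of 35 endothelial genes 13 were called, all higher, by 1.19 to 2.71. Among them were the adhesion molecules Icam1 (2.71 ± 0.55) and Icam2 (2.56 ± 0.45), the vessel factor Sox18 (1.72 ± 0.40) and Plvap, a protein of fenestrated vessels (1.93 ± 0.45). The groups did not overlap in any of these 8 genes, which were picked for their small p. Over the whole lists, 33 of 55 and 19 of 35 genes were higher without overlap and 1 of each lower. Of all genes, 13.8% were higher and 17.5% lower without overlap.

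Of 28 smooth muscle genes 13 were called, all lower, by 0.77 to 2.37 log2 units. Myh11, the smooth muscle myosin, stood at 2.65, 4.53, 2.99 and 3.60 in EB and at 1.91, 1.02 and 2.59 in EB+T+E (ratio -1.60 ± 0.42, limma adjusted p = 0.0079), so that EB 2 was highest and EB+T+E 3 came close to EB 1. Kcnmb1, a subunit of the smooth muscle potassium channel, Csrp1 and the myosin phosphatase subunit Ppp1r12b fell by 1.83, 1.17 and 2.37 on the log2 scale. The count of called genes was 18 without EB+T+E 3, 7 without EB+T+E 1, 3 without EB+T+E 2 and 8 under quantile scaling, always lower. Skeletal muscle genes are markers of neighbouring tissue: 0 of 28 were called in limma (1 at an unadjusted p under 0.05), and their list mean ran from -3.69 to 0.41 in EB and from -4.17 to -1.90 in EB+T+E. Nerve and ganglion genes were high in EB+T+E 1 and 2 (list mean -1.57 and -2.32) and low in EB+T+E 3 (-5.23), while EB ran from -4.98 to -2.45, and 2 of 37 were called: Ncam1 fell by 1.96 and Gfra3, a receptor of the GDNF family, rose by 1.89 ± 0.64 on the log2 scale. The part of nerve or muscle content in the results was not tested.

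**Figure D3:**
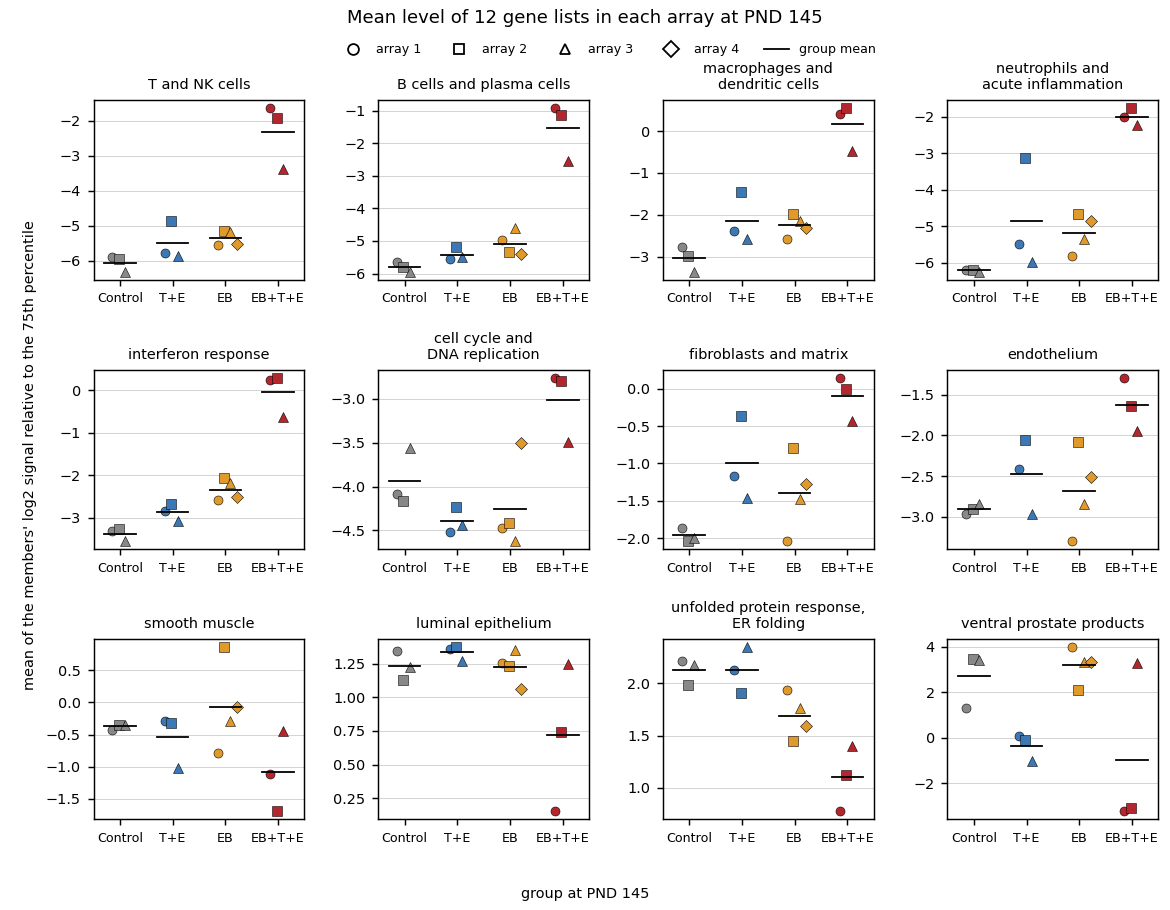
Mean log2 signal of 12 gene lists in each array of the 4 groups at PND 145, with group means as lines. All 3 EB+T+E arrays lie above all EB arrays for the 5 immune lists and the matrix list, while for ventral prostate products EB+T+E 3 (3.31) lies with EB (2.11 to 3.98) and EB+T+E 1 and 2 lie at -3.22 and -3.08.

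Of 56 genes of the cell cycle and DNA replication 31 rose, by 0.70 to 3.38, and 1 fell. Mcm3, of the replicative helicase, stood at -2.03, -1.74, -1.90 and -1.43 in EB and at 1.67, 1.19 and -0.31 in EB+T+E (ratio 2.63 ± 0.43, limma adjusted p = 0.00015). Aurkb, a mitotic kinase, and E2f7 and E2f8, factors of S phase, had ratios of 3.09 ± 0.64, 2.95 ± 0.64 and 3.38 ± 0.71. In these 3 genes EB 4 was the highest EB array, and the list mean of EB 4 (-3.50) was close to that of EB+T+E 3 (-3.49), against -4.62 to -4.41 in the other EB arrays and -2.76 and -2.79 in EB+T+E 1 and 2. The count was 16 without EB+T+E 1 and 15 without EB+T+E 2. The E2F site TTTNGCGC occurred in 9 of 43 promoters of the list (20.9%), against 1.37% of all, and 5 of the 9 genes rose, as did 21 of the 34 without it. Over all 260 tested genes with these letters, members of the list included, 6.92% rose and 18.1% fell, against 10.9% and 14.3% of the tested genes with a promoter. The match in Tyms, the thymidylate synthase of DNA synthesis, is shown in the 100 bases before its start (chr9:120776084-120776183, minus strand):
Tyms: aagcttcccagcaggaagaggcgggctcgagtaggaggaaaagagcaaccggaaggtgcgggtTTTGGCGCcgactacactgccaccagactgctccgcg

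Tyms rose by 0.91 ± 0.27 on the log2 scale, from between -5.63 and -5.15 to -4.65, -4.63 and -4.15.

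Epithelial lists were mixed, and their counts stand against 10.6% of all genes that rose and 12.3% that fell. Of 23 mucosal secretory genes 5 rose, by 3.33 to 10.48, and 2 fell. Muc4, a membrane mucin, stood between -9.10 and -5.55 in EB and at -2.78, -1.99 and -2.45 in EB+T+E (ratio 5.68 ± 1.27), and Scgb3a1, a secretoglobin of airway epithelium, had a ratio of 3.33 ± 0.51. Foxi1, the factor of ionocytes, fell by 2.21. Of 32 luminal genes 1 rose and 4 fell, the latter a share near that of all genes. Without EB+T+E 3, 11 of the 32 fell, a share above that of all genes (3426 of 23352). Foxa1, a pioneer transcription factor of luminal cells, stood at 0.90, 0.13, -0.35 and 0.79 in EB and at -1.67, -1.44 and -0.11 in EB+T+E 1 to 3 (ratio -1.44 ± 0.42, limma adjusted p = 0.015), with EB+T+E 3 above EB 3. Elf5 and Ovol1, epithelial transcription factors, fell by 1.74 and 1.66, and Dpp4, a surface peptidase that T cells carry too, rose by 2.41 ± 0.54. Of 39 basal and squamous genes 4 rose and 4 fell, shares near those of all genes. Ly6d (5.13 ± 1.37) was higher and Csta, a protease inhibitor of cornifying epithelium, was at least 4.52-fold higher, while the keratins Krt15 and Krt10 fell by 1.48 and 0.89. Of 8 urothelial genes 2 were called, both lower, Upk1a among them.

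Secretory products divided the treated arrays. Of 6 ventral prostate products 2 were called, Scgb1d2 and Scgb1d4, both lower. Scgb1d2, a secretoglobin subunit of prostatein, stood at 5.97, 3.99, 5.81 and 5.77 in EB 1 to 4 and at -3.83, -3.76 and 5.65 in EB+T+E 1 to 3 (ratio -6.03 ± 2.00, limma adjusted p = 0.030). Scgb1d4 showed the same split, at -3.39, -3.37 and 4.12, against 4.40 to 5.78 in the 3 EB arrays with a usable spot (EB 3 had an outlier spot and was left out of its fit). Andpro, an androgen-dependent prostate protein, stood at 6.17, 4.06, 6.25 and 5.59 in EB and at -4.44, -4.67 and 6.06 in EB+T+E (adjusted p = 0.057), and Sbp, the spermine-binding protein, at 4.42 to 6.50 and at -0.89, -0.82 and 6.20 (adjusted p = 0.084). EB+T+E 1 and 2 thus held ventral products at a small fraction of the EB level, and EB+T+E 3 held them at the EB level. Without EB+T+E 3, 5 of the 6 were called, all lower, among them Andpro (ratio -10.07, limma adjusted p = 0.0041) and Sbp (-6.58, 0.0090), and without EB+T+E 1 or EB+T+E 2, 0 were called in limma. Whether lobes, cells or expression differed between these arrays cannot be told apart here.

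Zg16b and Mme, counted among the dorsolateral products, were split in the same way, with Zg16b at 4.55 to 6.18 in EB and at -0.43, -0.60 and 6.01 in EB+T+E, while other products moved less. Msmb, the beta-microseminoprotein of the dorsolateral lobes, stood at 5.73, 5.54, 5.08 and 5.33 in EB and at 4.75, 4.99 and 4.70 in EB+T+E (ratio -0.61 ± 0.25, adjusted p = 0.074 in limma), so the groups did not overlap although the gene was not called. Pbsn, the androgen-regulated protein probasin, had a ratio of -0.59 ± 0.33 and Svs4, a seminal vesicle secretory protein, one of -0.88 ± 0.40, neither called. Tgm4, the prostate transglutaminase, stood at 5.52 to 6.19 in EB and at 5.75, 5.84 and 3.45 in EB+T+E, with EB+T+E 3 lowest. Of 10 dorsolateral products 0 were called in limma, 4 at an unadjusted p under 0.05, and of 8 seminal vesicle products 0 were called, 2 at an unadjusted p under 0.05. Among all 23352 genes 8597 had an unadjusted p under 0.05. Without EB+T+E 3 the dorsolateral count was 2, Zg16b (ratio -6.17, limma adjusted p = 0.0078) and Mme (-2.75, 0.036), both lower, and the seminal vesicle count was 1, Svs5, higher (7.04, 0.0077). The seminal vesicle proteins Svs5 (-0.81, -0.46 and -9.26), Pate4 (-4.34, -4.01 and -9.26) and Svs1 (-6.56, -5.88 and -9.26) were measured in EB+T+E 1 and 2 and not above background in EB+T+E 3, which is a further difference between these arrays.

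**Figure D4:**
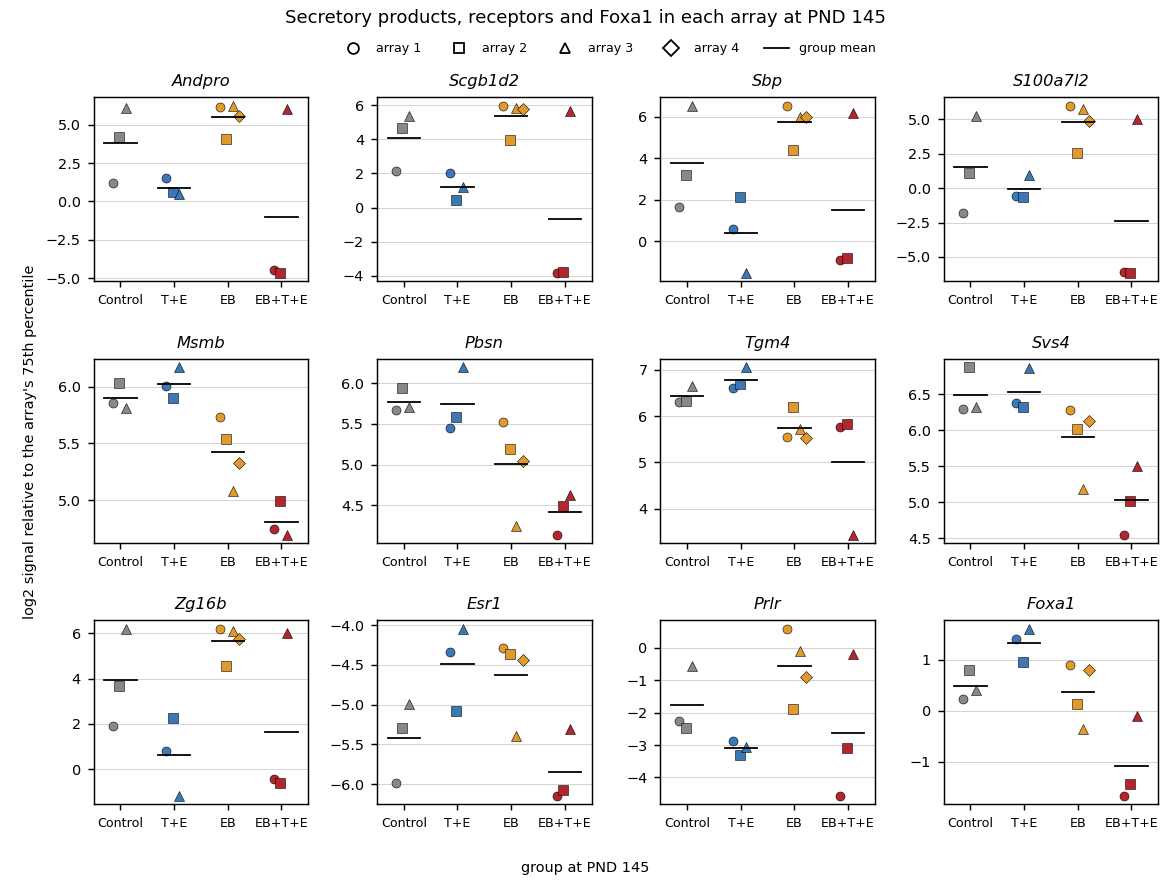
Log2 signal of 9 secretory or epithelial products, 2 receptors and Foxa1 in each array at PND 145, with group means as lines. Andpro, Scgb1d2, Sbp, S100a7l2 and Zg16b are low in EB+T+E 1 and 2 and at the EB level in EB+T+E 3, while Msmb is lower in all 3 EB+T+E arrays (4.70 to 4.99) than in any EB array (5.08 to 5.73).

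Among the receptors of estrogen, progesterone and prolactin, Esr1 was called, and it was lower in EB+T+E. Esr1, estrogen receptor alpha, stood at -4.29, -4.36, -5.40 and -4.44 in EB and at -6.15, -6.07 and -5.31 in EB+T+E (ratio -1.22 ± 0.44, limma adjusted p = 0.048), and the call was lost without any 1 of 5 arrays and in 6 other settings. EB+T+E 3 lay above EB 3 for this gene. Prlr, the prolactin receptor, read 0.59, -1.90, -0.09 and -0.91 in EB and -4.58, -3.11 and -0.18 in EB+T+E, not called (ratio -2.05 ± 1.12), and without EB+T+E 3 the ratio was -3.27 and called (limma adjusted p = 0.045). Esr2, estrogen receptor beta (-0.78 ± 0.64), Pgr, the progesterone receptor (0.94 ± 0.65), and the 5-alpha-reductases Srd5a1 (-0.10 ± 0.44) and Srd5a2 (-0.06 ± 0.27) were not called either.

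Of 40 androgen-responsive genes 4 rose and 4 fell. Without EB+T+E 3, 3 rose and 10 fell, when 2634 of all 23352 genes rose and 3426 fell. Pmepa1 (1.79 ± 0.36), Maf (1.67 ± 0.38) and the protease Tmprss2 (1.75 ± 0.50; 1.47 and not called without EB+T+E 3, limma adjusted p = 0.058) were higher, and Amd1, an enzyme of polyamine synthesis, fell by 1.80, from between 5.30 and 6.52 to 3.46, 3.78 and 4.67. Of 39 estrogen-responsive genes 8 rose and 2 fell. Besides C3 these were Susd3 (3.00 ± 0.56), Ccn5, a matrix-associated signalling protein (4.16 ± 0.85), and the trefoil factor Tff1, at least 1.71-fold higher and above background in 2 of 3 treated arrays. Among 18 genes of prolactin signalling and milk proteins 4 rose and 3 fell. Socs3, a cytokine-induced inhibitor of JAK signalling, stood at -3.11, -0.88, -2.74 and -1.64 in EB and at 1.76, 2.17 and 1.64 in EB+T+E (3.95 ± 0.95). Wap, whey acidic protein, was at least 7.57-fold lower, and the amino acid oxidases Il4i1 and Lao1 moved in opposite directions, by 2.38 ± 0.64 and -3.34 ± 0.94. Of 30 genes of steroid synthesis and metabolism 4 rose and 3 fell, among them Sts, the sulfatase that frees estrone and DHEA (1.78 ± 0.32), Hsd11b1, which regenerates glucocorticoid (1.29 ± 0.33), and Hsd17b10, which fell by 1.03. For the androgen, estrogen and steroid synthesis lists the shares called in either direction lay near the background of 22.9%, and that of the prolactin list lay above it. In the estrogen list the share that rose was above the 10.6% of all genes, and the share that fell was below 12.3%. Its median was 0.31, against -0.22 for all genes.

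Of 49 genes of protein folding in the endoplasmic reticulum 8 were called, all lower, by 0.84 to 1.95 log2 units, a share near the 12.3% of all genes that fell. The list median was -0.76, against -0.22 for all genes. The count was 16 without EB+T+E 3, when 3426 of all 23352 genes fell. It was 1 without EB+T+E 1 and 2 without EB+T+E 2, when 1222 and 1363 of all genes fell. The list mean was 1.45 to 1.94 in EB and 0.78, 1.12 and 1.40 in EB+T+E 1 to 3. Canx, the chaperone calnexin, stood at 3.87, 3.61, 4.19 and 3.74 in EB and at 2.61, 2.73 and 3.02 in EB+T+E (ratio -1.06 ± 0.21, limma adjusted p = 0.00092). Pdia6 and Ssr2, of folding and translocation, fell by 1.14 and 0.95, and Ern1, a sensor of unfolded protein, fell by 1.46. The ER stress element, read by ATF6 and searched as CCAAT, any 9 bases and CCACG, occurred in 9 of 40 promoters of the list (22.5%), against 0.0765% of all. Of these 9 genes 3 fell and the groups did not overlap in 6, all lower. In the whole list of 49, 17 genes were lower and 2 higher without overlap, against 17.5% and 13.8% of all genes. Over all 17 tested genes with the letters, the 9 members of the list included, 6 (35.3%) fell, against 14.3% of the tested genes with a promoter. The 40 bases from -240 to -201 are shown for the 3 that fell, to set the element beside its gene:
Canx: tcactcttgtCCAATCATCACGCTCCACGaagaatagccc
Calr: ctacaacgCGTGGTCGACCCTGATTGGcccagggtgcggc
Ero1b: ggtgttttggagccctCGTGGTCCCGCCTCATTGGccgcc

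They lie at chr10:35158058-35158097 (minus strand), chr19:40213127-40213166 (plus) and chr17:92941442-92941481 (plus). Calr, the chaperone calreticulin, stood at 2.87, 1.90, 3.26 and 1.98 in EB and at 0.75, 1.65 and 1.88 in EB+T+E, and Ero1b, an oxidase of disulfide formation, at 0.87 to 2.46 and at -0.36, -0.36 and 0.59. Hspa5, the chaperone BiP, which carries the element at -43, stood at 4.69 to 5.15 and at 3.84, 4.14 and 4.59, without overlap and not called (adjusted p = 0.080 in limma).

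The counts of the lists that follow stand against 10.6% of all genes that rose and 12.3% that fell. Of 42 genes of cholesterol and fatty acid synthesis 1 rose and 7 fell, among them Pmvk, a kinase of the mevalonate pathway (fell by 1.29), Thrsp, a regulator of lipogenesis (fell by 2.65), and Acsl4 (fell by 1.50), while Acss2, which makes acetyl-CoA, rose by 1.19 ± 0.29. Of 55 genes of glutathione and antioxidant defence 5 rose and 14 fell, and 9 rose and 10 fell under quantile scaling, while without EB+T+E 1 the counts were 2 and 4 and without EB+T+E 2 they were 2 and 5. Hmox1, heme oxygenase, stood at -4.89, -3.28, -4.39 and -3.98 in EB and at -1.03, -0.36 and -1.49 in EB+T+E (3.17 ± 0.54), and catalase (Cat), Gstm4 and Gstt2 fell by 1.74, 1.26 and 1.12. Of the remaining lists, 5 of 54 developmental signals rose and 7 fell, 4 of 33 DNA methylation and chromatin genes rose and 3 fell, 1 of 34 growth factors and receptors rose and 3 fell, 3 of 31 genes of polyamine, zinc and citrate metabolism rose and 5 fell, 3 of 23 adipocyte genes rose and 2 fell, 2 of 28 hypoxia genes rose and 1 fell, and of 23 spermatid and epididymal genes 0 were called in limma, 3 at an unadjusted p under 0.05.

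**Figure D5:**
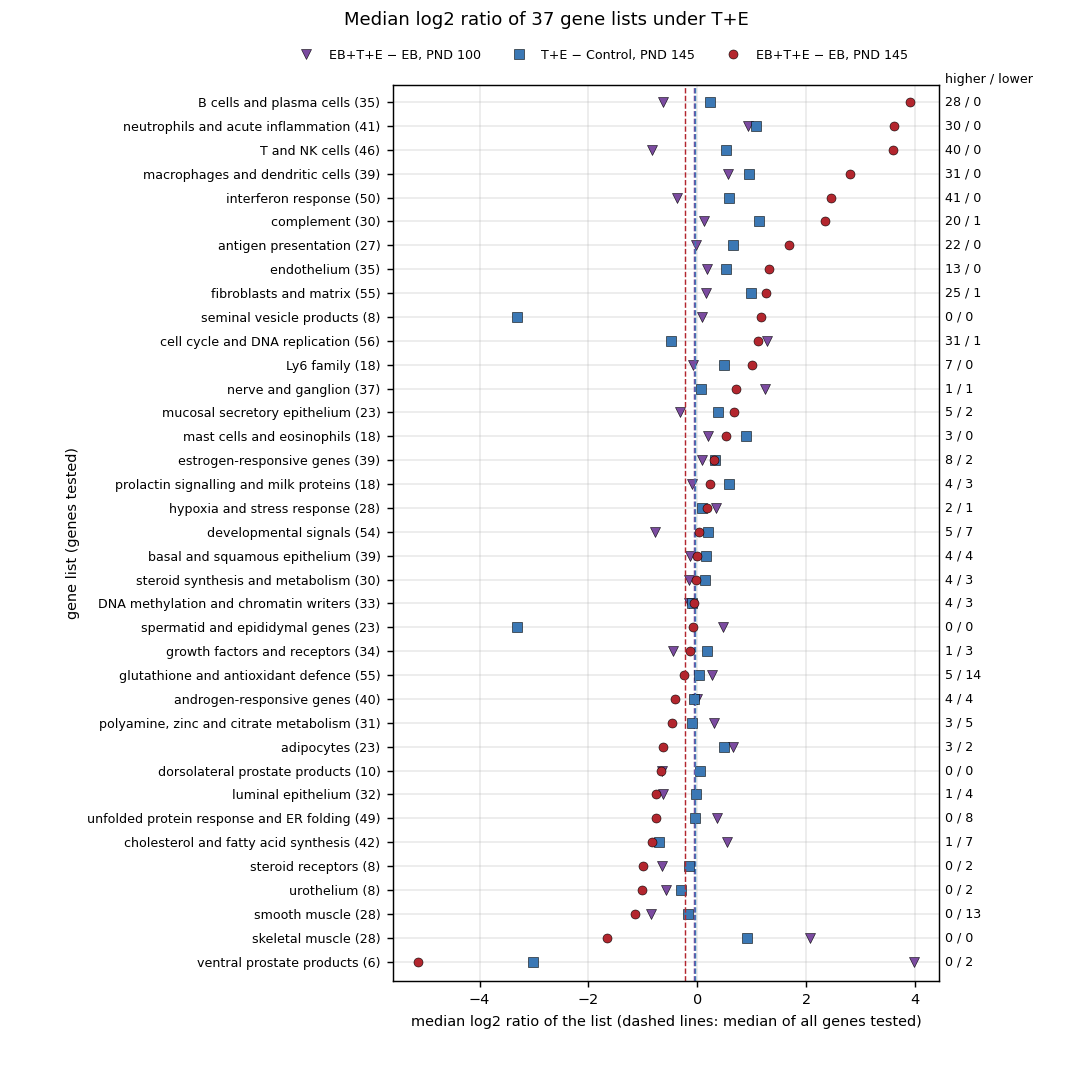
Median log2 ratio of 37 gene lists under T+E, in EB rats at PND 145 (circles), in EB rats at PND 100 (triangles) and in rats without neonatal EB at PND 145 (squares). Numbers at the right count genes called higher and lower in EB rats at PND 145; the T and NK list has a median of 3.59 there, of -0.82 at PND 100 and of 0.52 without neonatal EB.

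The same implants were also given to rats without neonatal EB. T+E against Control at PND 145 called 89 genes (0.381%; 67 higher, 0.287%, and 22 lower, 0.0942%). The list medians were 0.52 for T and NK cells, 0.23 for B and plasma cells, 0.58 for interferon response and 1.07 for neutrophils, and 0 members of these 4 lists were called in limma. At an unadjusted p under 0.05 stood 4 of 46, 4 of 35, 2 of 50 and 12 of 41 members, against 2301 of all 23352 genes. Only the neutrophil share lay well above that of all genes. T+E 2 was the highest of its group in each of these lists but was below every EB+T+E array. Clca1 rose in both settings. Without neonatal EB it stood at -8.97 to -8.14 in Control, not well above background in any of the 3 arrays, and at 1.58, 5.68 and 2.57 in T+E.

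The difference between the effects, (EB+T+E minus EB) minus (T+E minus Control), was called for 180 genes (0.771%; 149 higher, 0.638%, and 31 lower, 0.133%). Of the B and plasma cell list 7 of 35 were called, all with the larger rise in EB rats, and of the T and NK, interferon and cell cycle lists 2 each. At an unadjusted p under 0.05 in limma, 26 of 35, 36 of 46, 25 of 50 and 36 of 56 members of these lists were higher and 0 lower. Among all 23352 genes 3153 had such a p. The cell cycle median under T+E without neonatal EB was -0.49, so its difference joins a rise in EB rats to lower values there. Tnfrsf17 was among the 180 genes (limma adjusted p = 0.0083): it stood between -3.17 and -0.74 in EB+T+E and was not well above background on any EB, Control or T+E array, so the size of its difference has no measured value. Igkv28, well above background in 2 of 4 EB arrays, 1 Control array and 0 T+E arrays, had a fitted difference of 9.02 ± 1.94 (limma adjusted p = 0.025) and lost its call without any 1 of 7 arrays. For the other 2 of the 4 highest, Garin3 (9.35) and Gsg1 (8.78), the highest value was that of Control 2, at -0.93 and 3.60, against -6.20 in Control 1 for Garin3 (Control 3 was an outlier spot) and -2.63 and -4.04 for Gsg1. Control 2 also carried the highest spermatid and epididymal list mean (-0.18 against -3.89 and -4.90). Without it the Garin3 difference was 6.72 (adjusted p = 0.026) and the Gsg1 difference 6.46 (adjusted p = 0.15 in limma). The Gsg1 call (limma adjusted p = 0.049) was also lost without any 1 of 9 other arrays and in 8 other settings, among them the slide block (0.070), quantile scaling (0.051) and normexp (0.12).

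The 4 lowest differences belonged to genes that T+E raised in rats without neonatal EB and for which the ratio in EB rats was lower. Akr1b7, an aldo-keto reductase, stood at -9.52 to -8.89 in Control, at -0.50, -2.23 and -2.57 in T+E, at -9.63 to -8.72 in EB and at -7.30, -7.01 and -8.01 in EB+T+E (difference -5.62 ± 0.72, limma adjusted p = 0.00021). Csn2, the milk protein beta-casein, stood at -9.12 to -8.84 in Control, at -2.49, -4.34 and 1.40 in T+E and at -9.26 to -6.95 in EB+T+E, above background in 1 of its arrays (difference -6.98 ± 1.27, limma adjusted p = 0.0085). Taar1, a trace amine receptor, and Lrrn3, a neuronal leucine-rich repeat protein, had differences of -5.59 ± 1.18 and -5.49 ± 1.18. Their calls were lost without any 1 of 4 and of 5 arrays, respectively, and that of Taar1 also with the slide as a block (limma adjusted p = 0.056) and with the replicate block on all groups (0.052). Akr1b7 and Csn2 were not well above background on any Control or EB array, so the sizes of their differences depend on that floor. The count of 180 was 44 without EB+T+E 2, 55 without EB+T+E 1 and 664 without EB+T+E 3. It was 52 and 65 without T+E 1 and 3, 104, 103 and 116 without EB 1, 2 and 4, and 92 and 87 without Control 1 and 2.

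After 10 days of implants, at PND 100, EB+T+E against EB called 400 genes (1.71%; 166 higher, 0.711%, and 234 lower). The cell cycle list had a median of 1.27 there and of 1.11 at PND 145, with 2 and 31 members called higher. At an unadjusted p under 0.05 in limma, 43 and 36 of its 56 members were higher. For the difference between the ages 0 members were called, 3 at an unadjusted p under 0.05. At PND 100 the T and NK median was -0.82, the B and plasma cell median -0.63 and the interferon median -0.37, with 0 called in limma. At an unadjusted p under 0.05 stood 6 of 46, 9 of 35 and 2 of 50 members, all lower, against 3655 of all 23352 genes. The T and NK and interferon shares thus lay below that of all genes. The myeloid lists had medians above 0. That of neutrophils and acute inflammation was 0.93, with 0 called in limma. At an unadjusted p under 0.05, 7 of its members were higher and 1 lower, a share near that of all genes. The macrophage and dendritic cell median was 0.56, with 1 called higher and 9 higher unadjusted. The neutrophil list means were -1.55, -2.33 and -4.70 in EB+T+E 1 to 3 of PND 100, so that the first and second of these lay near the level of EB+T+E at PND 145, and -5.59, -3.14 and -2.62 in EB. The EB arrays of PND 100 were themselves uneven, with T and NK list means of -5.59, -3.81 and -2.57 in EB 1 to 3, against -4.42, -4.34 and -5.31 in EB+T+E, and ventral product means of 3.44, -3.92 and -0.46.

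The difference between the effects at PND 145 and PND 100 was called for 1919 genes (8.22%; 1121 higher, 4.8%, and 798 lower, 3.42%), among them 35 of 46 T and NK genes, 23 of 35 B and plasma cell genes and 28 of 50 interferon genes, all with the higher log2 ratio at PND 145. The medians of these 3 lists were below 0 at PND 100, so the difference joins higher values at PND 145 to lower ones at PND 100. Jchain had a difference of 10.75 ± 1.24 (limma adjusted p = 1.2e-05): it stood at -1.01, -1.85 and 4.29 in EB and at -3.67, -1.22 and -3.14 in EB+T+E at PND 100. Igkv28, Np4 and Defa5, another defensin, had differences of 10.10, 10.44 and 10.45, and in each EB 3 of PND 100 was by far the highest array of its group (0.72, 0.40 and 0.17). Without that array the Jchain difference was 8.84 and the count of genes 575. The 4 lowest differences, S100a7l2 (-12.22), the pseudogene Rps4x-ps1 (-11.15), Scgb1d2 (-10.88) and Scgb1d4 (-10.62), joined the low values of EB+T+E 1 and 2 at PND 145 to those of EB 2 at PND 100 (-8.51, -9.66, -5.20 and -4.70), and each lost its call without that array. Fitted on these 4 groups alone the count was 4, and the cause was not tested, so that the difference between ages is the least settled of these comparisons.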

How the data were processed

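The scanner files are the authors' deposited output of Agilent Feature Extraction 12.0.0.7 (array design 074036, grid build rn4, per the file headers); their processed signals are linear fluorescence intensities, with the background of each array subtracted by the scanner software and no scaling across arrays. Outlier spots (413 to 969 per array) were dropped, spots of 1 probe averaged, and the log2 intensity was set against the array's 75th percentile. A probe was kept if 3 or more of the 33 arrays measured it well above background, and named through a RefSeq gene table (21184 by accession, 9060 by symbol, 406 by synonym, of 45598), and the brightest probe stood for a gene. Group means of all 33 arrays were fitted with limma 3.58.1 (R 4.3.3, trended and robust variance), with Benjamini-Hochberg adjustment within each comparison, and the fit was tested on simulated data. Figures used matplotlib 3.10.9.

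Genes were named by a rule: the 12 highest and 12 lowest called ratios without overlap, 4 bounds per direction, up to 4 members of smallest p per described list, a fixed set of receptors, enzymes and products, and the 4 highest and lowest of each difference. Some genes that the rule selects are not reported here. The comparison, the 37 lists and the rule were chosen with earlier results of these data known. For a bound, the brighter group's mean was compared with the dim group's mean after raising each dim value to the lowest signal above background on that array. Same-numbered EB and EB+T+E samples correlated in their deviations at -0.24, 0.13 and -0.03, so the numbers were not taken as pairs. The authors' deposited value table, linear intensities scaled to a 75th percentile of 619.357 to 619.517, served as an alternative.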

Additional observations from a re-analysis of the deposited data

Results flagged for a closer look

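Among 145 named genes measured on all 4 EB arrays of PND 145, 6 had 1 array far from the others by the share of the range that its gap took (Dixon's test), where chance marks about 1 group in 20. Ccl3 was highest in EB 4 (0.901), Scgb1d2 lowest in EB 2 (0.899), Pmepa1 and Muc4 highest in EB 2 (0.832 and 0.893), Esr1 lowest in EB 3 (0.863) and Fcrla highest in EB 3 (0.834). Of 37 list means, that of polyamine, zinc and citrate metabolism was highest in EB 1 (0.921).

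The T+E effect differed with neonatal EB for 180 genes and with age for 1919 genes in limma. With EB the differences named were 9.35 (Garin3), 9.02 (Igkv28), 8.78 (Gsg1), 7.20 (Tnfrsf17), -6.98 (Csn2), -5.62 (Akr1b7), -5.59 (Taar1) and -5.49 (Lrrn3). Those of Tnfrsf17, Csn2, Akr1b7 and Garin3 are fitted values against groups not well above background. With age they were 10.75 (Jchain), 10.45 (Defa5), 10.44 (Np4), 10.10 (Igkv28), -12.22 (S100a7l2), -11.15 (Rps4x-ps1), -10.88 (Scgb1d2) and -10.62 (Scgb1d4).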

How the results depend on the processing

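Counts of called genes that moved by more than 1.5 times are given here. For EB+T+E against EB at PND 145 the 5351 calls became 3558 when only the compared groups were fitted and 10645 with array weights, and ran from 2781 to 6060 with 1 array left out. Higher calls (2471) became 4047 with array weights and ran from 1559 to 2634 with 1 array left out. Lower calls (2880) became 1407 with only the compared groups, 6598 with array weights and 1467 with a minimum of 2-fold, and ran from 1222 to 3426. The difference with neonatal EB (180) became 25 with a filter of 17 arrays, 278 with only the groups compared and 4294 with array weights, and ran from 44 to 664. The difference with age (1919) became 4 with only the groups compared and 3472 with array weights, and ran from 575 to 3559. EB+T+E against EB at PND 100 (400) became 187 with normexp and 0 with only the groups compared (limma, 988 at an unadjusted p under 0.05), and ran from 22 to 1179. T+E against Control (89) became 152 with quantile scaling, 47 with a filter of 17 arrays, 23 with only the groups compared, 137 with the authors' deposited table and 963 with array weights, and ran from 53 to 177. The replicate block, fitted on all groups, gave 4516 calls, 4461 of them among the 5351, and 95 for the difference with EB. Fitted on only the groups compared, the replicate block gave 1087 (922 higher, 165 lower), 0 for the difference with age (2731 unadjusted), 0 at PND 100 (624 unadjusted) and 3 for T+E against Control, with fewer residual degrees of freedom. The slide block gave 4906 calls, and 154 for the difference with EB. Equal numbers share a slide between EB and EB+T+E, and between Control and T+E, at PND 145 but not across all groups, and they did not pair the samples. No named gene called in EB+T+E against EB reversed under any setting run. The number of arrays limits the precision of all values.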
